A study of Mus musculus with 9 samples.

Results

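Cell cycle inhibitors and genes of the p53 response were followed across the infarcted mouse heart. The 10 genes were chosen by symbol: the inhibitors Cdkn1a, Cdkn1b, Cdkn2a, Cdkn2b and Cdkn2c, the p53 gene Trp53 and its ubiquitin ligase Mdm2, and the stress response genes Ccng1, Gadd45a and Gadd45b. They are 10 of the 55367 gene symbols in the count table, and all 10 passed the filter on low counts, Cdkn2a and Cdkn2b through the infarcted libraries, since both had under 10 reads in every sham library. RNA came from mouse left ventricle, from infarct core and the tissue around it, and was sequenced in 9 libraries with 3 in each group. The groups were a sham operation, an infarct of the myocardium (MI) and such an infarct treated with BPD (MI+BPD). The study describes BPD as aimed at the proliferative phase of healing and asked whether it acts together with less fibroblast activation. Tissue was taken 14 days after infarction per the labels, sham has no time of its own, and no strain, age, sex, genotype, dose or schedule is stated for any group. BPD is not spelled out, the MI group has no stated vehicle, and sham hearts have no infarct, so that comparisons with sham may also set unlike parts of the ventricle side by side.

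A cell enters division when cyclins activate their kinases (CDKs), which release E2F factors from the retinoblastoma proteins. The CIP/KIP proteins, encoded by Cdkn1a (p21) and Cdkn1b (p27), bind cyclin and kinase complexes, whereas the INK4 proteins, among them the products of Cdkn2a (p16), Cdkn2b (p15) and Cdkn2c (p18), bind CDK4 and CDK6. The p53 protein induces Cdkn1a, Mdm2, Ccng1 and Gadd45a after damage or stress, Mdm2 in turn directs p53 to degradation, and the second product of Cdkn2a, ARF, inhibits Mdm2. Adult heart muscle cells rarely divide, while fibroblasts and leukocytes do so in a healing infarct.

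The library totals ran from 14451410 to 19269072 counts. Levels are counts per library total in CPM, scaled by trimmed mean of M values (TMM) factors. Changes are log2 fold changes with the standard error (SE) from edgeR's quasi-likelihood test over 15138 genes, and "rose", "fell" and "called" mean a Benjamini-Hochberg adjusted p under 0.05. The choice of scaling matters here: when libraries were scaled by their totals alone, the median change of all genes moved from 0.07 to 0.81 in MI against sham, from 0.00 to -0.20 in MI+BPD against MI, and from 0.04 to 0.57 in MI+BPD against sham. The tissue makeup also differed. The summed level of 10 cardiomyocyte markers ran from 87314 to 90763 CPM in sham but only from 24311 to 39884 in MI and from 36620 to 49983 with BPD, and 9 of the 10 fell and 1 (Nppa) rose in MI. With library totals 7 of these 10 fell and 1 rose. The sum of 10 fibroblast markers spanned 1201 to 1378 CPM in sham, then 15249 to 22424 in MI and 20658 to 22335 with BPD, and that of 10 macrophage markers 397 to 476, 787 to 1350 and 1003 to 1317 CPM. All 10 fibroblast and 9 of 10 macrophage markers rose in MI. The remaining macrophage marker, Cd163, did not pass and lay lower in MI (4.97 to 25.6 CPM) than in sham (28.3 to 35.1). No marker of these 3 lists was at 0 in any group. The sum of 10 endothelial markers spanned 1706 to 2093 CPM in sham, 960 to 1246 in MI and 1137 to 1333 with BPD, and 6 of them fell in MI with TMM scaling, whereas 6 rose and 3 fell with library totals. Beside these marker calls, 37.0% of all genes were called higher and 31.9% lower in MI against sham, and with library totals 10488 and 1765 of 15138. MI library 1 stood apart for T and B lymphocyte markers, at 55.3 CPM in sum against 13.9 and 8.79 in the other MI libraries, and for neutrophil markers, at 57.3 against 13.7 and 8.93. Mitochondrially encoded genes took 34.4% to 35.2% of sham counts, 11.4% to 18.2% of MI counts and 17.6% to 25.7% of MI+BPD counts. In bulk tissue, fewer cells of a type and less RNA per cell cannot be told apart, and the part of these shifts in the changes below was not tested except where a value is given.

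Infarcted hearts held relatively more RNA of 5 of these genes and less of Ccng1, which had the highest level in sham. In MI against sham, Cdkn1b, Cdkn2a, Cdkn2b, Trp53 and Gadd45b rose, Ccng1 and Gadd45a fell, and Mdm2 fell with TMM scaling but rose with library totals. Thus 8 of the 10 were called, against 68.9% of all genes tested. The 5 that rose stand beside a background of 37.0% called higher, and the 3 that fell beside 31.9% called lower. With library totals 8 of the 10 were called higher and 1, Ccng1, lower, beside 10488 higher and 1765 lower calls over all genes, and Gadd45a lost its call. The levels of the MI and sham libraries did not overlap for 9 of the 10, all but Cdkn1a, against 74.4% of all genes. The members' median change was 0.45, and 1.19 with library totals, beside 0.07 and 0.81 for all genes. Counts of this kind were thus common among all genes.

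**Figure D1:**
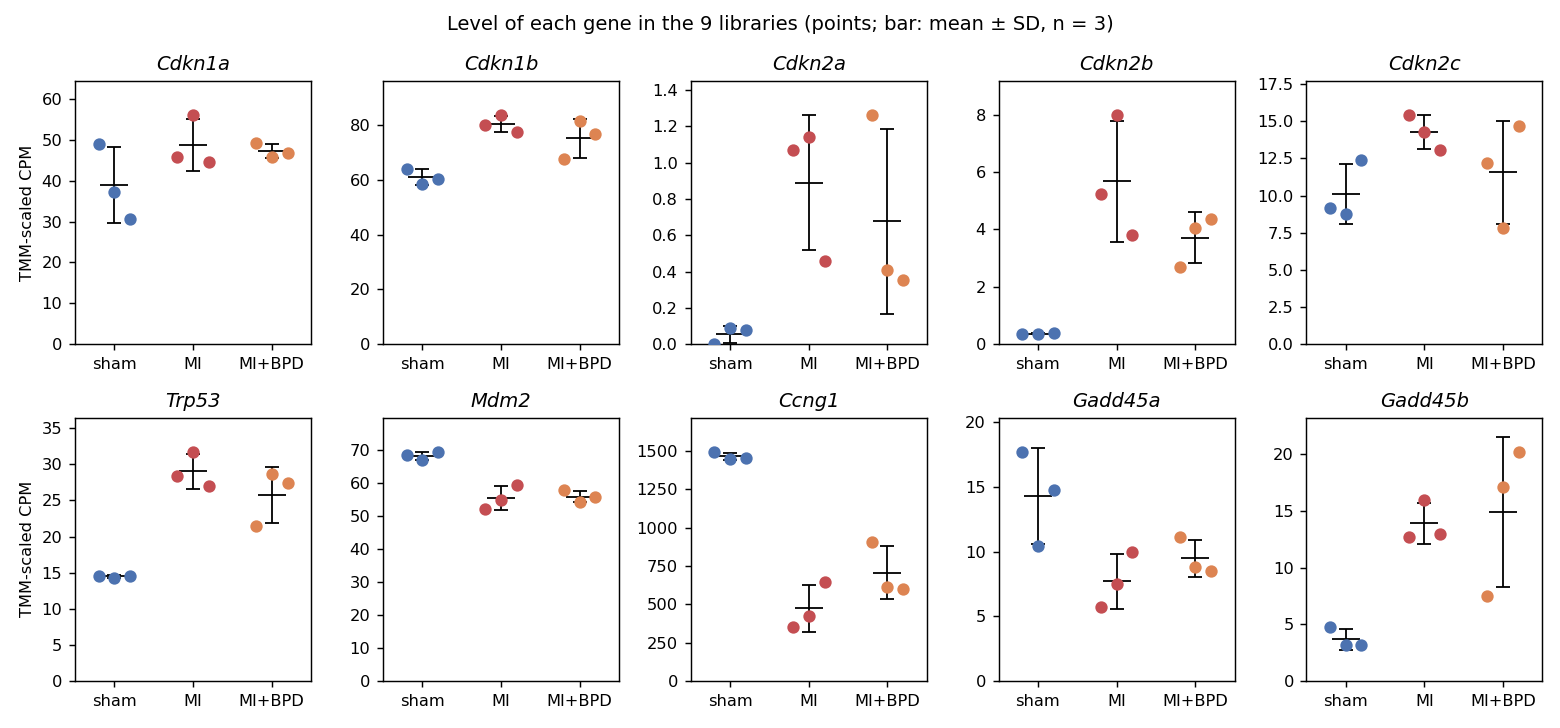
TMM-scaled CPM (vertical axes, each from 0) of the 10 genes in the 9 libraries, with 1 point per library and black bars for mean and SD of 3 libraries. Sham sits apart from MI for every gene but Cdkn1a, with Cdkn2b near 0.366 CPM in sham against 3.82 to 7.98 in MI, and MI and MI+BPD overlap for every gene; with library totals as the only scaling Mdm2 is higher, not lower, in MI.

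Cdkn1a, the p53 target that arrests cells in many tissues, stood at 48.9, 37.2 and 30.6 CPM in the sham libraries 1 to 3, at 45.8, 56.0 and 44.5 after infarction and at 49.2, 45.7 and 46.9 with BPD. Sham library 1 lay among the infarcted libraries, so the groups overlapped. The change in MI was 0.33 ± 0.16 (log2, SE; edgeR adjusted p = 0.0881), which did not pass. It passed without sham library 1 (0.52, adjusted p = 0.00824), with limma-voom (0.50, adjusted p = 0.00879) and with library totals (1.06, adjusted p = 2.9e-04). It was 0.18 without sham library 3 (adjusted p = 0.304) and 0.22 without MI library 2 (adjusted p = 0.282). Against sham, MI+BPD gave 0.28 ± 0.16 (edgeR adjusted p = 0.150), and passed without sham library 1 (0.48, adjusted p = 0.0162) and with library totals (0.80, adjusted p = 0.00252), while it was 0.13 without sham library 3 (adjusted p = 0.464). Of the 3553 annotated exon bases of Cdkn1a, 273 are shared with a gene model on the opposite strand, AC167363.2, and without a stated strand setting the reads of the pair cannot be told apart.

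The RefSeq start regions of the members were searched for the p53 response element, because 4 of the genes are textbook targets of p53. The window ran from 250 bases before to 50 after each annotated start, on GRCm38.p6, and gave 13 windows for all 10 members. The full element was taken as the consensus of a pair of adjacent 10-base elements with no spacer, the core C and G of each exact and at most 2 mismatches in all, a pattern that reads alike on both strands. It was present in 2 of the 10 members, Cdkn1a and Ccng1, with 1 mismatch each, and in 107 of all 32851 windows (0.326%). The 250 bases upstream of each of these starts are shown because only these members held the full element, which is in capitals. The Cdkn1a stretch is chr17:29090729-29090978 on the plus strand, and its element begins 51 bases before the start.
Cdkn1a: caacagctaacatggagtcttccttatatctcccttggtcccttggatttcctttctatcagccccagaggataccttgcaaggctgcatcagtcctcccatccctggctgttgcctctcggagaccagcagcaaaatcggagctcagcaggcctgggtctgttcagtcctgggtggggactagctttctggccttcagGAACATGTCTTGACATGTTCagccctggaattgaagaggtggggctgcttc
The Ccng1 stretch is chr11:40755287-40755536 on the minus strand, written on the gene's strand, and its element begins 195 bases before the start.
Ccng1: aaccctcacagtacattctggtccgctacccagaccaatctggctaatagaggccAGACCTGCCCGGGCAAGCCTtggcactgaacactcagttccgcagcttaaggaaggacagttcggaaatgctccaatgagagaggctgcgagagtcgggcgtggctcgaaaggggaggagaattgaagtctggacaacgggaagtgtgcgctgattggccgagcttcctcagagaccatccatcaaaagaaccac
A lone exact 10-base element, which 8.36% of all windows hold, was found in the windows of Trp53 (GGACTTGCCC at chr11:69580284-69580293, plus strand), Mdm2 (GAACTTGCCT at chr10:117710935-117710944, minus strand) and Gadd45a (GGGCTAGCCC at chr6:67037438-67037447, minus strand). The other annotated start of Cdkn1a and the windows of the remaining 5 members held neither form. Of 22 further p53 target genes with a window, 2 (Ckap2 and Gtse1) held the full element. A match is a string of letters in a window and is not a measured binding site. Sequence outside these windows, introns among it, was not searched, so a window without a match does not show that a gene lacks the element.

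Cdkn1b, which holds resting cells out of the cycle, read 64.1, 58.4 and 60.2 CPM in sham, 80.1, 83.5 and 77.5 in MI, then 67.5, 81.5 and 76.6 under BPD. Every infarcted library was above every sham library. The rise was 0.40 ± 0.08 in MI (edgeR adjusted p = 0.00205) and 0.30 ± 0.08 in MI+BPD against sham (adjusted p = 0.0112), and 1.14 and 0.84 with library totals. Without MI+BPD library 2 the rise in MI+BPD against sham was 0.24 and just missed the threshold (adjusted p = 0.0501). The related Cdkn1c, which encodes p57, went the other way and fell by 1.18 ± 0.19 in MI (edgeR adjusted p = 4.3e-04).

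The INK4 genes Cdkn2a and Cdkn2b, which lie side by side on chromosome 4, were close to absent in sham and showed the largest changes among the 10. Cdkn2b had 4, 4 and 5 reads in the sham libraries, 132, 196 and 83 in MI, then 45, 79 and 86 with BPD. These are 0.366, 0.350 and 0.381 CPM in sham, 5.23, 7.98 and 3.82 in MI, and 2.70, 4.05 and 4.37 with BPD, so that the lowest infarcted library was far above the highest sham library. Its rise was 3.93 ± 0.39 in MI (edgeR adjusted p = 5.1e-05) and 3.32 ± 0.39 in MI+BPD against sham (adjusted p = 2.1e-04). Both Cdkn2a and Cdkn2b passed the filter on low counts through the infarcted libraries, which favours large rises from near 0 in sham. The pooled CPM ratio of Cdkn2b to sham was 15.7 in MI, with a 95% counting interval of 9.07 to 29.7, and 10.3 in MI+BPD, with an interval of 5.87 to 19.6. Both intervals pool the reads of a group and leave out the spread between libraries.

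Cdkn2a had 0, 1 and 1 reads in sham, 27, 28 and 10 in MI, then 21, 8 and 7 after BPD. In CPM these are 0, 0.0875 and 0.0762, then 1.07, 1.14 and 0.460, then 1.26, 0.411 and 0.356, again with no overlap with sham. With 2 sham reads in all, the ratio to sham was 16.1 in MI with a counting interval of 4.29 to 136, and 11.4 in MI+BPD with an interval of 2.94 to 98.0, and these intervals cover counting error only. The fitted rises were 3.84 ± 0.90 (edgeR adjusted p = 0.00404) and 3.40 ± 0.95 (adjusted p = 0.0124), and the second was 2.60 without MI+BPD library 1 (adjusted p = 0.0272) and 2.26 with limma-voom (adjusted p = 0.00469). The gene's count pools the transcripts of p16 and ARF, which these data do not separate.

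Cdkn2c, the INK4 gene that was already present in sham, read 9.15, 8.75 and 12.4 CPM in sham, 15.4, 14.3 and 13.1 in MI, then 12.2, 7.85 and 14.7 with BPD. MI lay above sham in all libraries by a narrow margin, and MI+BPD spanned both. The change in MI was 0.49 ± 0.22 (edgeR adjusted p = 0.0728) and did not pass. It passed in 5 of 21 alternatives, among them without sham library 3 (0.67, adjusted p = 0.0416), without MI+BPD library 2 (0.49, adjusted p = 0.0219) and with library totals (1.23, adjusted p = 7.0e-04). MI+BPD gave 0.19 ± 0.22 against sham (adjusted p = 0.482), and 0.72 with library totals (adjusted p = 0.0199). The fourth gene of the family, Cdkn2d (p19), gave -0.01 ± 0.12 in MI (adjusted p = 0.973), and 0.73 with library totals (adjusted p = 0.00116).

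Within each library, the number of Cdkn2b reads per Cdkn2c read does not depend on scaling. It was 0.0400, 0.0400 and 0.0307 in sham, 0.340, 0.557 and 0.292 in MI, then 0.221, 0.516 and 0.298 under BPD. Sham lay below all 6 infarcted libraries, and MI and MI+BPD overlapped. This and 5 further ratios, chosen after values were seen, were compared in the 3 contrasts by 2-sided exact permutation tests, 18 in all. The smallest p that 3 against 3 libraries allow is 0.10, which all contrasts with sham reached but Cdkn1a to Trp53 in MI+BPD (exact p = 0.20), and its adjusted value over the 18 was 0.164, so no ratio could pass.

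**Figure D2:**
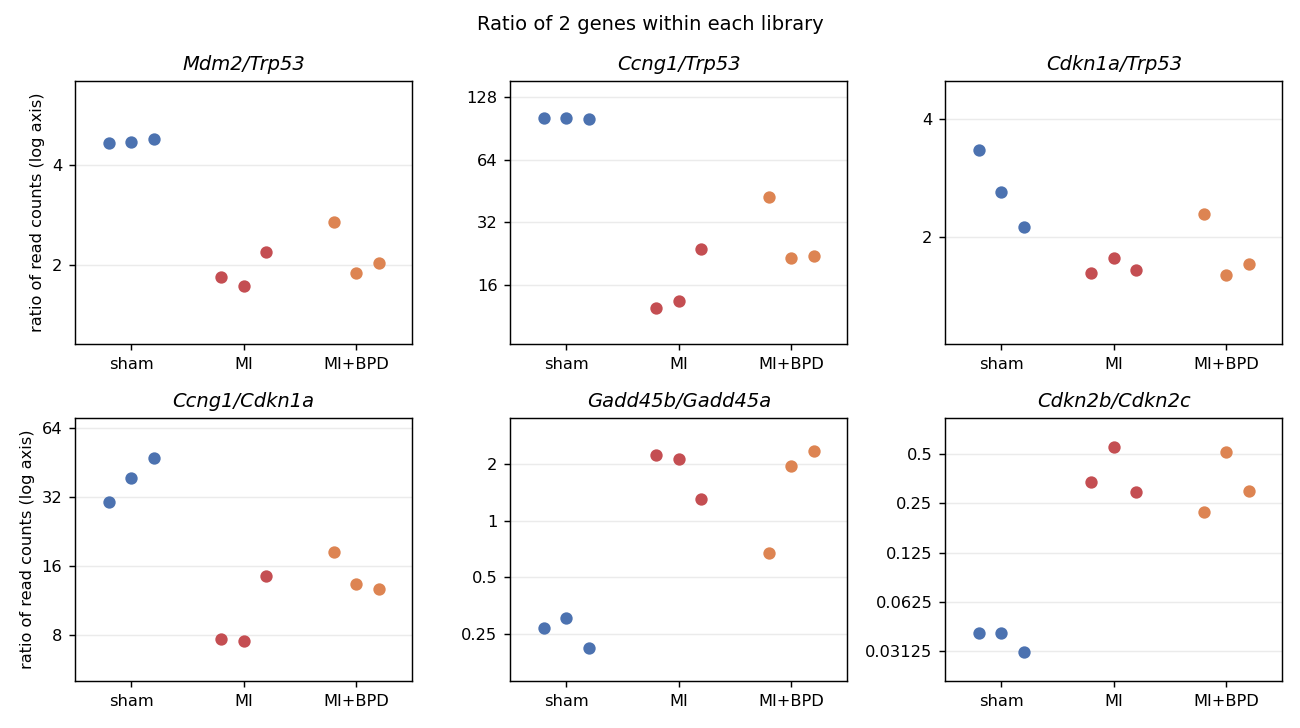
Reads of 1 gene per read of another in the same library (vertical axes, log scale), for 6 pairs of the 10 genes, with 1 point per library. Sham and MI do not overlap in any panel, with Mdm2 to Trp53 at 4.67 to 4.78 in sham against 1.73 to 2.19 in MI, while MI and MI+BPD overlap in all 6.

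Trp53, the p53 gene itself, was among the steadiest of the group within sham, at 14.6, 14.3 and 14.5 CPM. It stood at 28.4, 31.7 and 27.0 in MI, then at 21.4, 28.6 and 27.4 after BPD. All 6 infarcted libraries exceeded all sham libraries, and MI+BPD library 1 was the lowest of the 6. The rise was 1.01 ± 0.12 in MI (edgeR adjusted p = 1.1e-04), a fold of 2.01 with a 95% interval of 1.67 to 2.41, and 0.84 ± 0.12 in MI+BPD against sham (adjusted p = 5.2e-04). There were 3.34, 2.61 and 2.12 Cdkn1a reads per Trp53 read in sham, 1.62, 1.77 and 1.65 in MI, then 2.29, 1.60 and 1.71 under BPD. MI lay below sham, and MI+BPD library 1 lay within the sham range.

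Mdm2, the ligase that removes p53, read 68.3, 67.0 and 69.3 CPM in sham, 52.2, 54.9 and 59.2 in MI, then 57.7, 54.1 and 55.7 with BPD. The sham libraries were the highest with this scaling. The change was -0.30 ± 0.07 in MI (edgeR adjusted p = 0.00304), but with library totals it turned to 0.43 (adjusted p = 3.9e-04). Treated hearts gave -0.29 ± 0.07 against sham (adjusted p = 0.00504), and 0.24 with library totals (adjusted p = 0.0169). The ratio of Mdm2 to Trp53 reads, free of scaling, was 4.67, 4.70 and 4.78 in sham, 1.84, 1.73 and 2.19 in MI, then 2.69, 1.89 and 2.03 under BPD. Both infarcted groups thus held fewer Mdm2 reads per Trp53 read than any sham library. The close relative Mdm4, which restrains p53 without degrading it, rose by 0.43 ± 0.08 in MI (edgeR adjusted p = 0.00135).

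Ccng1, the cyclin G1 gene, is a p53 target with no established role in driving the cycle. It was the most abundant of the 10 per length of annotated exon, at 417 CPM per kilobase in sham, 135 in MI and 201 after BPD, when Cdkn1b, the next (level with Mdm2 in sham), had 13.4, 17.7 and 16.5 and Cdkn2a, the lowest, had 0.0466, 0.759 and 0.576. The libraries gave 1492, 1446 and 1454 CPM in sham, 352, 425 and 643 in MI, then 903, 614 and 601 after BPD. Sham varied little, both infarcted groups lay below it, and they overlapped each other. Ccng1 fell by 1.63 ± 0.25 in MI (edgeR adjusted p = 3.5e-04) and by 1.05 ± 0.24 in MI+BPD against sham (adjusted p = 0.00507). With library totals the changes were -0.92 (adjusted p = 9.6e-04) and -0.54 (adjusted p = 0.0221). Free of scaling, there were 102, 101 and 100 Ccng1 reads per Trp53 read in sham, 12.4, 13.4 and 23.8 in MI, then 42.1, 21.5 and 21.9 with BPD. Per Cdkn1a read there were 30.5, 38.9 and 47.5, then 7.68, 7.59 and 14.5, then 18.4, 13.4 and 12.8. Sham was highest on both ratios, and MI and MI+BPD overlapped.

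Of the 10 cardiomyocyte markers, 9 fell with Ccng1, while Nppa, the natriuretic peptide gene that stressed heart muscle induces, rose. Over all genes, 31.9% were called lower and 37.0% higher. With library totals 7 of the 10 markers fell and 1 rose, beside 1765 lower and 10488 higher calls over all genes. The markers' median change was then -1.17 in place of -1.88. The sum of the 10 was 87314, 87764 and 90763 CPM in sham, 24311, 27129 and 39884 in MI, then 49983, 39049 and 36620 with BPD, and the 6 infarcted libraries had the same order for Ccng1 as for this sum. Per 1000 reads of the 10 markers, a measure chosen after values were seen, Ccng1 had 17.1, 16.5 and 16.0 reads in sham, 14.5, 15.7 and 16.1 in MI, then 18.1, 15.7 and 16.4 under BPD. On that measure the groups overlapped, with means of 16.5 ± 0.534 for sham, 15.4 ± 0.849 for MI and 16.7 ± 1.20 for MI+BPD (SD over 3 libraries). That overlap depends on Nppa, which made up at most 0.214% of the marker reads in sham but 22.5%, 24.8% and 17.8% in MI, then 2.56%, 18.5% and 13.2% under BPD. Per 1000 reads of the 9 other markers, Ccng1 had 17.1, 16.5 and 16.0 reads in sham, 18.7, 20.8 and 19.6 in MI, then 18.5, 19.3 and 18.9 after BPD. All 6 infarcted libraries were then above sham, with means of 16.6 ± 0.548 for sham, 19.7 ± 1.08 for MI and 18.9 ± 0.383 for MI+BPD (SD over 3 libraries), so Ccng1 fell less than these 9 markers together. Their sum weighs the most abundant markers most. Singly, by group means of sham and MI, Actc1 (10338 and 5103 CPM) and Mybpc3 (3204 and 1833) fell less than Ccng1 (1464 and 474). The others of the 9 fell more. The other 9 members had more reads per 1000 marker reads in every MI library than in any sham library, with Nppa and without it. The marker reads themselves fell in MI, so genes that fell less than they did tend to separate in this way. Gadd45a did so although it fell with TMM scaling. The share of all genes that separate on this measure was not computed. The genes with the closest profile to Ccng1 over the 9 libraries were Trdn, which encodes the calcium store protein triadin of heart muscle, and Ndufs8, a subunit of respiratory complex I. Both had a mean absolute difference of 0.04 (log2) from Ccng1 after centring, and they changed by -1.65 ± 0.23 and -1.68 ± 0.21 in MI.

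**Figure D3:**
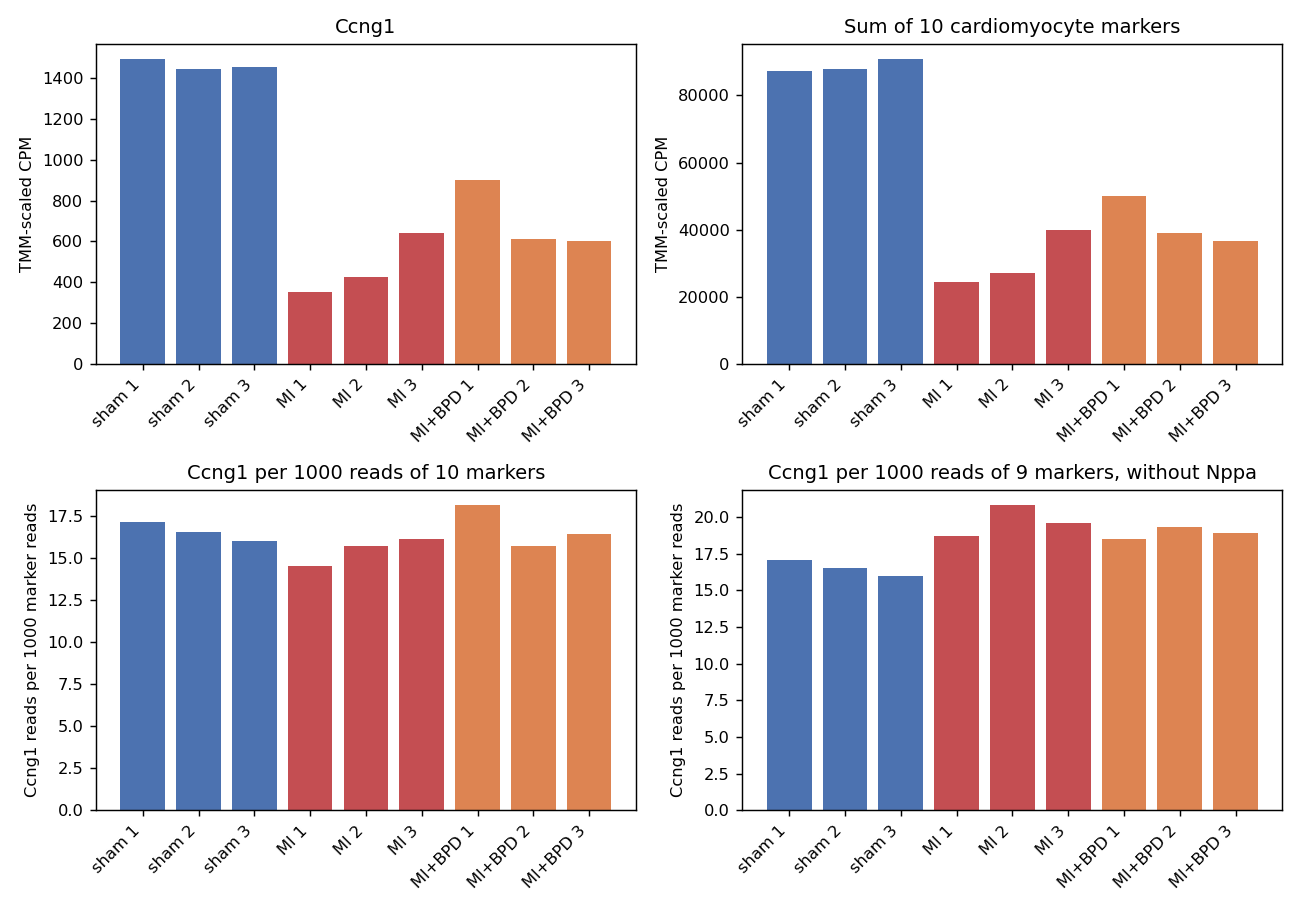
Ccng1 in TMM-scaled CPM, the sum of 10 cardiomyocyte markers in TMM-scaled CPM, and Ccng1 reads per 1000 marker reads with all 10 markers and with Nppa left out (vertical axes, from 0), with 1 bar per library. The upper panels fall from sham to the infarcted libraries in the same order of those 6, the lower left panel lies between 14.5 and 18.1 in all 9, and without Nppa sham (16.0 to 17.1) lies below the infarcted libraries (18.5 to 20.8).

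The Gadd45 genes encode small stress proteins that act on kinases and on DNA repair, and with TMM scaling Gadd45a fell and Gadd45b rose after infarction. Gadd45a, the p53 target, read 17.7, 10.4 and 14.8 CPM in sham, 5.70, 7.49 and 9.94 in MI, then 11.1, 8.78 and 8.53 after BPD. Sham library 2 lay just above the highest MI library and below MI+BPD library 1. Gadd45a fell by 0.89 ± 0.24 in MI (edgeR adjusted p = 0.00822), and with library totals the change was -0.18 and did not pass (adjusted p = 0.440). The change in MI+BPD against sham was -0.60 ± 0.24 and did not pass (adjusted p = 0.0562), though it passed in 9 of 21 alternatives, among them without sham library 2 (-0.78, adjusted p = 0.0250) and without MI+BPD library 1 (-0.76, adjusted p = 0.0317). Of its 1764 exon bases, 337 are shared with E230016M11Rik on the opposite strand.

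Gadd45b, which responds to cytokines and TGF-beta, read 4.76, 3.15 and 3.13 CPM in sham, 12.7, 16.0 and 13.0 in MI, then 7.49, 17.1 and 20.2 with BPD. All infarcted libraries were above sham, and MI+BPD held both the lowest and the highest of them. It rose by 1.92 ± 0.35 in MI (edgeR adjusted p = 9.7e-04) and by 2.03 ± 0.35 in MI+BPD against sham (adjusted p = 0.00134). There were 0.268, 0.303 and 0.211 Gadd45b reads per Gadd45a read in sham, 2.23, 2.13 and 1.31 in MI, then 0.672, 1.95 and 2.36 under BPD. Gadd45a thus had more reads than Gadd45b in all sham libraries and in 1 of the 6 infarcted ones. The third gene of the family, Gadd45g, rose by 0.69 ± 0.17 in MI (adjusted p = 0.00609).

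**Figure D4:**
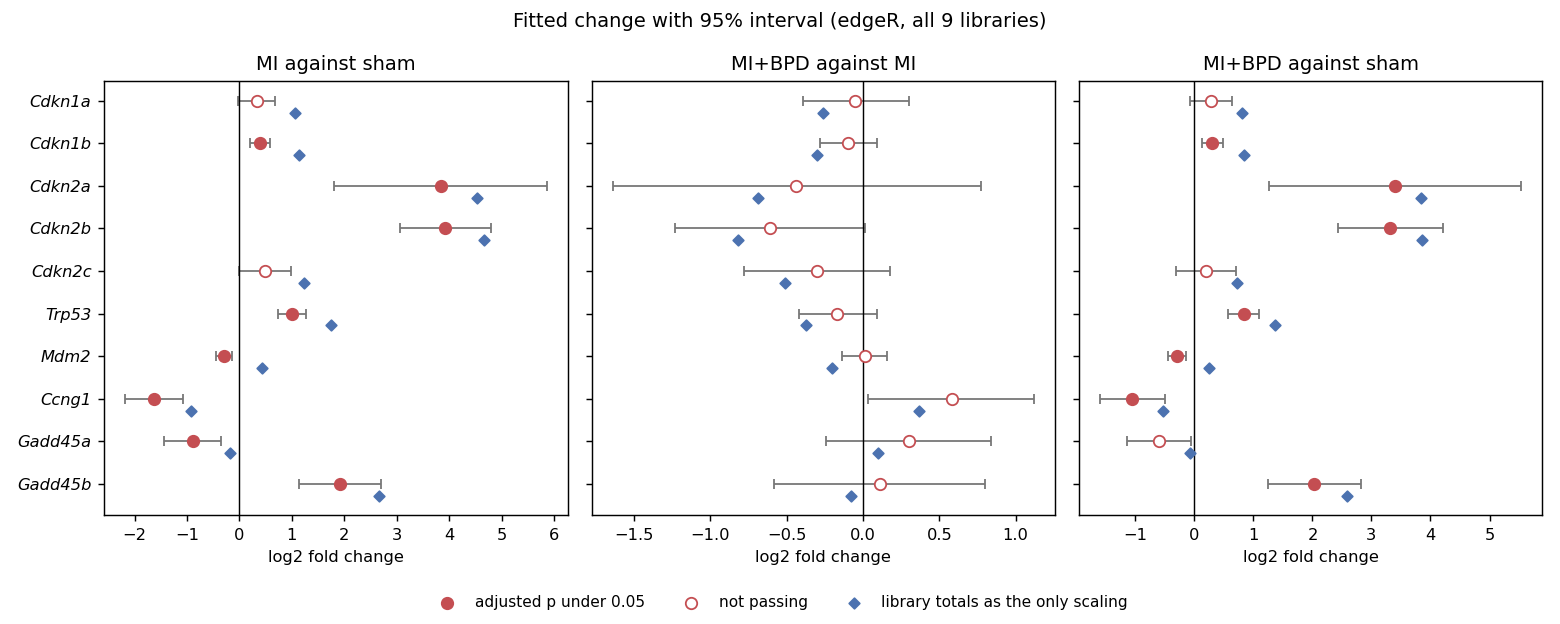
Log2 fold change (horizontal axes, differently scaled per panel) of the 10 genes in the 3 comparisons, with circles for the fit with TMM scaling, bars for its 95% interval, and diamonds for library totals as the only scaling. Cdkn2a and Cdkn2b lie farthest to the right of 0 in both comparisons with sham, Mdm2 changes side with the scaling, and no gene passes in MI+BPD against MI.

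None of the 10 genes passed edgeR's threshold between treated and untreated infarcts. In MI+BPD against MI edgeR called 0 of the 10, and 0% of all genes, with 2043 genes at an unadjusted p under 0.05 and 0.369 as the smallest adjusted p. Over all genes DESeq2 called 51, limma-voom 1063, and edgeR without MI library 3 called 1353. The libraries of MI and MI+BPD overlapped for all 10 members, against 13.9% of all genes with no overlap. The members' median change was -0.07, beside 0.00 for all genes.

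The member nearest to passing was Ccng1, at 0.58 ± 0.24 with a 95% interval of 0.03 to 1.12 (edgeR adjusted p = 0.369, unadjusted 0.0402). It passed with limma-voom (0.56, adjusted p = 0.0438) and without MI library 3 (0.86, adjusted p = 0.0376), and it was 0.18 without library 1 of both groups (adjusted p = 0.987). Beside it, the 10 cardiomyocyte markers had a median change of 0.64 with none called, and 6 of the 10 rose under each of these same settings, limma-voom and without MI library 3. Cdkn2b changed by -0.61 ± 0.28, with an interval from -1.23 to 0.01 (edgeR adjusted p = 0.373, unadjusted 0.0531), and by -0.28 without MI library 2 (adjusted p = 0.762). The interval of Cdkn2a ran from -1.64 to 0.77, that of Cdkn2c from -0.78 to 0.18, that of Gadd45b from -0.58 to 0.80 and that of Gadd45a from -0.24 to 0.84. The narrowest intervals were those of Mdm2, from -0.14 to 0.16, Cdkn1b, from -0.28 to 0.09, and Trp53, from -0.42 to 0.09, and that of Cdkn1a was -0.39 to 0.30. Larger changes of these 4 genes lie outside their intervals with this scaling, whereas the INK4 and Gadd45 genes leave wide ranges.

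Treated hearts were also set against sham, whose libraries this comparison shares with the first. In MI+BPD against sham, 7 of the 10 were called, against 59.6% of all genes. Cdkn1b, Cdkn2a, Cdkn2b, Trp53 and Gadd45b rose, beside 31.8% of all genes called higher. Ccng1 fell, and Mdm2 fell with TMM scaling but rose with library totals, beside 27.8% called lower. The libraries did not overlap for 7 of the 10, against 68.5% of all genes.

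With TMM scaling most of a list of cyclins and CDKs rose after infarction, while retinoblastoma and E2F genes moved in both directions. Of 15 cyclins, CDKs and their CDC25 activators, 10 rose, 0 fell and 5 did not pass in MI against sham, with a median change of 1.01, and all 15 rose with library totals. The 5, named after their values were seen, were Ccnd1, Ccnd3, Ccne2, Cdk2 and Cdc25a. As background for this paragraph, 37.0% of all genes were called higher and 31.9% lower, and with library totals 10488 and 1765 of 15138. The smallest adjusted p values were those of the INK4 target Cdk6 (1.30 ± 0.11, adjusted p = 3.1e-05), the mitotic cyclins Ccnb1 (3.42 ± 0.34, adjusted p = 5.1e-05) and Ccnb2 (2.61 ± 0.27), and Ccna2 of S phase and G2 (3.10 ± 0.32). Of 13 genes of the retinoblastoma and E2F group, 6 rose, 4 fell and 3 did not pass, with a median of 0.21, and with library totals 11 rose and 2 fell, with a median of 0.94. The activators E2f1 (2.11 ± 0.23) and E2f2 (3.52 ± 0.38) rose, and the repressor E2f6 (-1.21 ± 0.16) and the E2F partner Tfdp2 (-1.16 ± 0.14) fell. The fall of Rb1 (-0.33) and Rbl2 (-0.19), named after their values were seen, turned to 0.40 and 0.54 with library totals. The sum of 10 proliferation markers was 56.2 to 63.1 CPM in sham, 127 to 155 after infarction and 122 to 138 with BPD, and 9 of the 10 rose in MI.

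Other targets of p53 moved in both directions. Of 30 targets, 18 rose, 6 fell and 6 did not pass in MI against sham, with a median change of 0.90, and with library totals 26 rose and 3 fell. Among all genes tested, 37.0% were called higher and 31.9% lower, and with library totals 10488 and 1765 of 15138. Phlda3, an inhibitor of AKT, rose by 2.70 ± 0.21 (edgeR adjusted p = 2.2e-05), Apaf1 of the apoptosome by 1.35 ± 0.11 (adjusted p = 2.3e-05), Zmat3, an RNA binding protein, by 1.37 ± 0.12 (adjusted p = 3.6e-05), and the BH3 gene Pmaip1 by 3.22 ± 0.34 (adjusted p = 7.1e-05). The 6 that fell, listed after their values were seen, were Tigar (-1.30), Perp (-1.06), Sesn1 (-0.98), Rrm2b (-0.70), Ei24 (-0.54) and Aen (-0.41), and the changes of Rrm2b, Ei24 and Aen turned to 0.03, 0.19 and 0.31 with library totals. In MI+BPD against sham 18 targets rose and 5 fell, beside 31.8% of all genes called higher and 27.8% lower. In MI+BPD against MI edgeR called 0 of the 30, and 0% of all genes.

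Upstream of p53 most genes did not pass with TMM scaling. Of 15 regulators, 2 rose, 3 fell and 10 did not pass in MI against sham, with a median of -0.03, although 13 rose and 0 fell with library totals. Beside them, 37.0% of all genes were called higher and 31.9% lower, and with library totals 10488 and 1765 of 15138. The kinase gene Hipk2 fell by 0.83 ± 0.13 (edgeR adjusted p = 3.4e-04), and its change with library totals was -0.11. The ubiquitin ligase genes Cop1 (-0.57 ± 0.09) and Rchy1 (-0.27 ± 0.08) fell with TMM scaling and turned to 0.16 and 0.46 with library totals. Npm1, the nucleolar protein that binds ARF, rose by 0.29 ± 0.08 (adjusted p = 0.00986). Of 7 close relatives of the members, 6 were tested, and 3 rose (Ccng2 by 0.68 ± 0.13, Mdm4 and Gadd45g) while Cdkn1c fell.

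Of 13 genes often measured as signs of cell senescence, a state in which Cdkn2a and Cdkn1a are commonly high, 10 rose, 0 fell and 3 did not pass, with a median of 1.28. These counts are for MI against sham, where 37.0% of all genes were called higher and 31.9% lower. Igfbp7, an IGF binding protein, rose by 3.10 ± 0.31 (edgeR adjusted p = 5.7e-05), Glb1, the lysosomal beta-galactosidase, by 0.90 ± 0.12 (adjusted p = 1.7e-04), Igfbp3 by 2.07 ± 0.28 (adjusted p = 1.9e-04), and the matrix protease gene Mmp3 by a fold of 3.99, with a 95% interval of 2.47 to 6.43 (adjusted p = 3.7e-04). Lmnb1 and Hmgb2, whose loss is a common sign of senescent cells, were among the 10 and rose by 0.78 ± 0.12 and 0.63 ± 0.11, named after their values were seen. Several of the 13 are also secreted by activated fibroblasts or macrophages, whose markers rose in the same libraries, and the part of those cells was not tested.

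**Figure D5:**
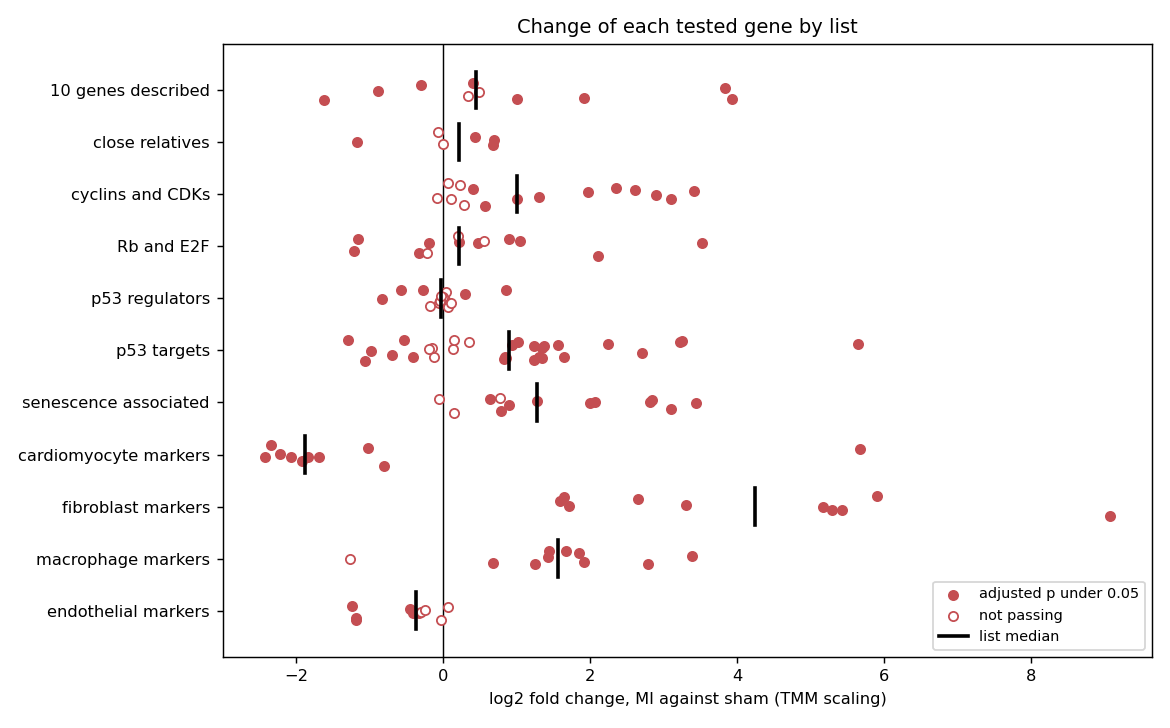
Log2 fold change in MI against sham with TMM scaling (horizontal axis) of each tested gene, with 1 row per list, filled points for an adjusted p under 0.05, open points for the rest and a black line at the list's median. The 10 genes described span from Ccng1 at -1.63 to Cdkn2b at 3.93, the list of cyclins and CDKs has its median at 1.01 and that of p53 regulators at -0.03, while cardiomyocyte markers lie at a median of -1.88 and fibroblast markers at 4.24.

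The genes whose profile over the 9 libraries was closest to each member were found by the mean absolute difference of centred log2 CPM. Cdkn2b was nearest to P3h3, a collagen hydroxylase gene (mean absolute difference 0.10), and to the macrophage gene Mpeg1 (0.14), which rose by 3.40 ± 0.24 and 3.27 ± 0.26 in MI. Cdkn2a was nearest to Cd248, a stromal cell marker (0.30), and to the complement gene C1ra (0.33), at a larger distance than for the other members, whose nearest gene lay within 0.13. These 2 rose by 2.36 ± 0.31 and 2.45 ± 0.25 in MI, less than the 3.84 fitted for Cdkn2a. At 0 to 28 reads per library, the log2 CPM of Cdkn2a depends on the prior count of 2. Trp53 was nearest to Lpin2 and Mbtps1 (0.03 each), Mdm2 to Ate1 (0.02) and Keap1 (0.03), and Cdkn1b to Togaram1 (0.03) and Fam118a (0.04). For Cdkn1a they were Ttc9c (0.07) and Tmem175 (0.08), for Cdkn2c Thap3 (0.13) and Bcl9l (0.14), for Gadd45a Scrn2 (0.08) and Sh2d4a (0.10), and for Gadd45b Ubtd2 (0.13) and Rab23 (0.15). These are likenesses over 9 libraries that share the same groups and tissue, among 10486 genes.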

How the data were processed

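RNA was extracted with TRIzol, kept at an RNA integrity number above 7 and read as 150 bp pairs, per the labels' protocols. The authors deposited raw read counts per gene symbol. STAR is named without a version, per the submitters' processing notes, with the builds mm10, GRCm39 and mm39 without roles. The counting program is not given in the sources used here, nor are its strand setting and annotation. The test was edgeR 4.0.16 in R 4.3.3. Its steps were TMM factors, filterByExpr at a minimum count of 10 and a total of 15, and glmQLFit with robust estimation, in which the 3 groups share 6 residual degrees of freedom. SE follows from the F statistic. Exon lengths came from GENCODE M21 and promoters from RefSeq GRCm38.p6. No pair of libraries in a group agreed within sampling noise. The labels do not say that libraries came from separate animals, so p-values measure the spread between libraries, which may be technical. Total counts ran from 14451410 to 19269072, and counting intervals cover counting error only.

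The 10 members and the gene lists were chosen with earlier results of these data known. Named were all members, up to 4 genes of smallest adjusted p per list, and the 2 nearest profiles per member among genes of at least 5 CPM (prior count 2). Alternatives were DESeq2 1.42.0, limma-voom (limma 3.58.1), other scalings, filters and thresholds, only the groups compared, a replicate block, no mitochondrial genes, and omission of each library. Leaving out MI 1 and MI+BPD 1 together was added after the data were seen. The procedure was tested on simulated counts in which few genes changed, as many up as down, with the same dispersion for all. In MI against sham 68.9% of genes were called, so that simulation does not test the scaling used here.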

Additional observations from a re-analysis of the deposited data

How the results depend on the processing

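The 10 genes' changes were recomputed under 21 alternatives in each comparison (Cdkn2a under 18 or 19, since it was filtered out under the rest). In MI against sham, 197 values kept direction and side of the threshold, 8 gained a call, 1 lost it and 1 reversed. In MI+BPD against MI these were 195, 2, 0 and 11, and in MI+BPD against sham 190, 12, 3 and 2. Members called in MI+BPD against MI numbered 1 (Ccng1) with limma-voom, and 0 to 1 when each library was left out. Over all genes limma-voom called 1063 in that comparison. Without MI library 3, the omission that gave the 1, edgeR called 1353. Library totals reversed Mdm2 in MI against sham (0.43), in MI+BPD against sham (0.24) and in MI+BPD against MI (-0.20), and Gadd45b in MI+BPD against MI (-0.08). Mdm2 in MI+BPD against MI was also -0.04 by upper-quartile scaling, -0.00 under a stricter filter and -0.01 when the third group was left out of the fit. With each library left out, it ran from -0.03 to 0.06, Cdkn1a from -0.11 to 0.07 and Gadd45b from -0.17 to 0.40 in that comparison, and Cdkn2c in MI+BPD against sham from -0.02 to 0.41. Without MI 1 and MI+BPD 1 together, Mdm2 was -0.07, Gadd45a -0.02 and Cdkn1a -0.13 in MI+BPD against MI, and with single libraries left out Gadd45a reached 0.52. The cause of these changes was not tested. In MI+BPD against sham 4 relatives, 14 cyclins and CDKs and 13 p53 regulators were called with library totals, against 2, 7 and 3. Over all genes these calls numbered 10514 with library totals, against 9018.

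Same-numbered libraries did not deviate together in every pair: the correlations were -0.05, 0.00 and -0.04 for sham and MI, -0.09, -0.06 and -0.06 for sham and MI+BPD, and 0.14, 0.19 and -0.16 for MI and MI+BPD, so the numbers were not taken to pair them. With a replicate block 8, 0 and 7 of the 10 were called in the 3 comparisons, as without it, and 10054, 0 and 8457 of all genes. The 2 sham reads of Cdkn2a limit the precision of its changes.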
